A study of Mus musculus with 16 samples.

Results

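The SWI/SNF genes described here are 10 subunits of the mouse BAF chromatin remodelling complex, taken by name from an FPKM table of 31274 genes: the ATPases Smarca2 and Smarca4, the core subunits Smarcb1, Smarcc1, Smarcc2, Smarcd1, Smarcd3 and Smarce1, and the AT-rich interaction domain subunits Arid1a and Arid1b. They were chosen by name as subunits of the complex, with earlier results of these data known, though no measured value entered the rule, and all 10 were in the table and above the minimum level for testing. RNA-seq was performed on seminal vesicles (SV), the accessory sex glands that secrete most of the seminal fluid, of C57BL/6 male mice at 5 weeks of age, with the gland dissected away from the anterior prostate. The 4 groups held 4 samples each. WT-veh mice were wild-type and received corn oil alone, and WT-DES mice were wild-type and received diethylstilbestrol (DES, a synthetic oestrogen) in corn oil under the skin as newborns, with a daily dose of 2 µg for each pup from day 1 through day 5. The aERKO-veh and aERKO-DES mice received the same vehicle or the same DES and carried a disrupted Esr1, the gene of oestrogen receptor α, in every tissue, so that the receptor was lost in the whole animal and not only in the gland. The methods describe RNA from 4 individual mice in WT-veh, aERKO-veh and aERKO-DES and from 3 pools of mice in WT-DES, while 4 WT-DES samples are in the table, so how the WT-DES samples relate to single animals was not settled.

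SWI/SNF complexes use ATP to slide or evict nucleosomes, and so open promoters and enhancers to transcription factors. Each complex is built around 1 ATPase, encoded by Smarca4 (BRG1) or Smarca2 (BRM), and a core of shared subunits, many of which come in alternative paralogous forms that exclude each other or vary with cell type. Nuclear receptors, oestrogen and androgen receptors among them, recruit BAF to DNA, and loss of single subunits is common in cancer.

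FPKM is a fragment count divided by the length of the transcript and by the total mapped in that sample. The depth of each sample is unknown. Levels are thus per length, but a trend on transcript length that differed between samples remained in these values. The order of genes of unlike length is to be read with this limit. Group differences were tested on log2(FPKM + 1) with limma over the 15988 genes whose mean exceeded 1 FPKM in 1 group or more, and a gene passed at a Benjamini-Hochberg adjusted p of at most 0.05. All log2 differences are on the log2(FPKM + 1) scale, and for low genes they are smaller than the true change. Esr1 matched the labels. WT-veh samples had 2.81 to 4.55 FPKM of Esr1, WT-DES samples 8.74 to 19.6, aERKO-veh samples 1.30 to 1.75 and aERKO-DES samples 0.910 to 1.64, with every aERKO sample below every WT sample. Summed over all genes, WT-veh samples held 590446 to 652708 FPKM and WT-DES samples 375207 to 437619. WT-DES sample 1 stood apart from its group, with a mean correlation of 0.92 with the other 3 WT-DES samples, against 0.943 to 0.946 for those 3. Marker lists of several other cell types moved with DES in WT. The summed FPKM of 9 leukocyte markers ranged from 252 to 410.4 among WT-veh samples and from 949 to 1415 among WT-DES samples, and that of 6 fibroblast markers 731 to 881 and 1916 to 2091. That of 6 epithelial markers was 1459 to 1609.7 and 765 to 1062, with 5 of 6 markers lower and 1 higher. For 9 SV secretory genes it was 52826 to 61056 and 2503 to 8176. Of 4 adipose markers 3 were higher, while 0 of 3 neuronal markers passed, 1 of 6 markers of dividing cells was higher and 2 of 6 skeletal muscle markers were lower. No marker of these lists was at a mean of 0 in any group. In these bulk samples fewer cells of a type and less RNA per cell cannot be told apart.

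In WT-veh the level of the 10 genes spanned from 8.17 ± 0.888 FPKM (SD, n = 4) for Arid1b to 69.6 ± 5.99 (SD, n = 4) for Smarcc2. Smarcc2, a core scaffold subunit (BAF170), was the highest, with every WT-veh sample above those of the next gene, Smarca2. Smarca2 and Smarcb1 followed and overlapped, and Smarcd3, Smarca4, Arid1a and Smarcc1 came below them in this order with no overlap between neighbours. Smarce1 and Smarcd1 overlapped each other, and Arid1b was lowest in every sample. The order in WT-DES differed at the top, where Smarca2 and Smarcc2 overlapped, and Smarcd3 fell from the fourth place to the sixth. In both aERKO groups Smarcc2 and Smarca2 were again first and second without overlap.

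**Figure D1:**
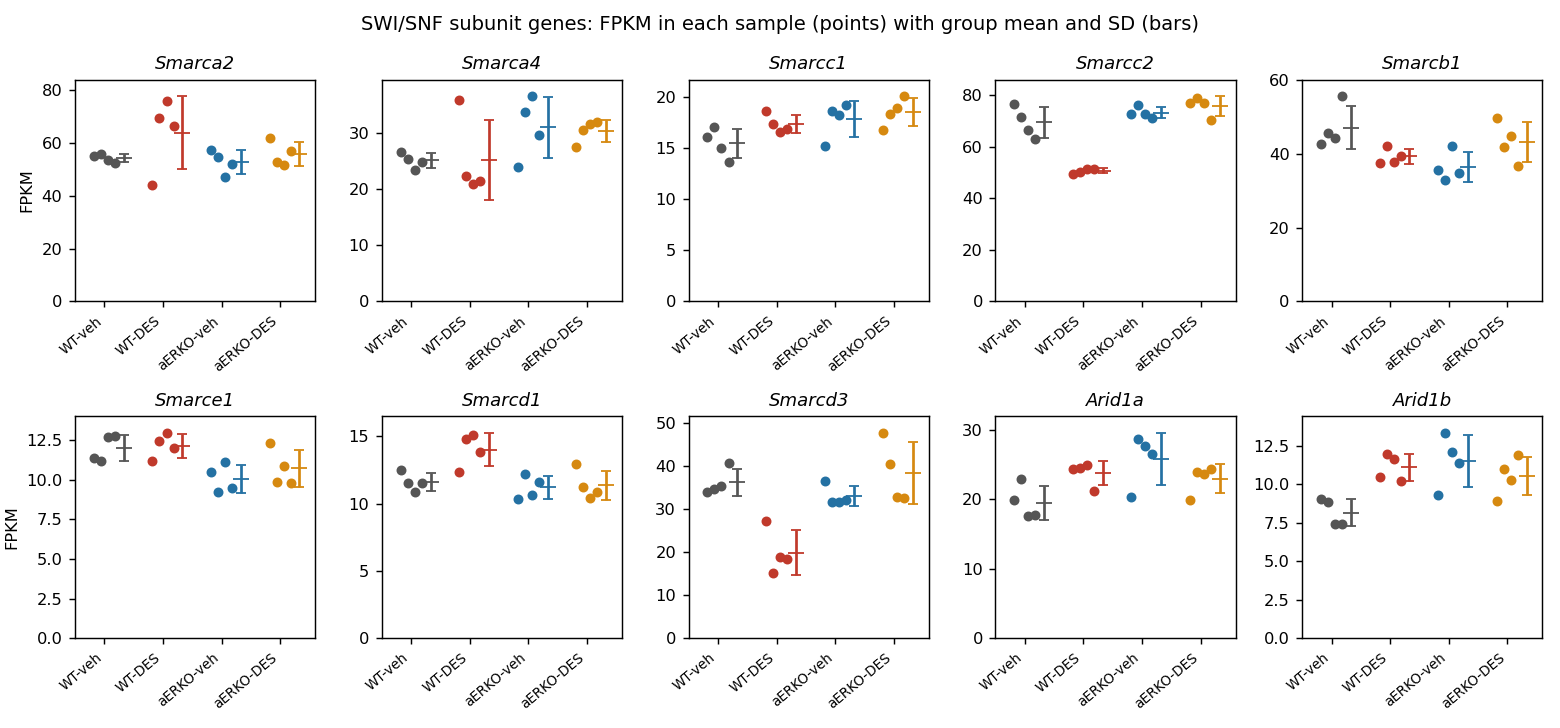
FPKM of the 10 subunit genes in the 16 samples, by group (x axis) with 1 point per sample and the group mean and SD beside the points. Smarcc2 and Smarcd3 in the 4 WT-DES samples (49.4 to 51.5 and 15.1 to 27.2) sit below all samples of the other 3 groups.

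Neonatal DES changed 6 of the 10 genes in WT glands (WT-DES vs WT-veh). Smarcd1, Arid1a and Arid1b were higher and Smarcb1, Smarcc2 and Smarcd3 lower, and Smarca2, Smarca4, Smarcc1 and Smarce1 did not pass. Over all 15988 genes tested, 36.4% were higher and 37.3% lower, so 3 of 10 in each direction is near the background. The median log2 difference of the 10 genes was 0.09, against −0.01 over all genes. When samples were rescaled to equal totals without the 20 most abundant genes, the median of all genes moved to 0.365 and the split of the members to 7 higher and 1 lower, against 54.3% higher and 20.7% lower of all genes.

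The scaffold pair Smarcc1 (BAF155) and Smarcc2 (BAF170) forms the dimer on which the core is assembled. Smarcc2 was at 76.8, 71.8, 66.6 and 63.1 FPKM in the 4 WT-veh samples and at 49.4, 50.3, 51.5 and 51.4 in WT-DES. The groups did not overlap, and the spread within WT-DES was the narrowest of the 4 groups. The WT-DES mean was 0.729 times that of WT-veh (log2 difference −0.45, SE 0.06, limma adjusted p = 1.06e-05). The call depended on how samples were scaled. With samples rescaled to equal totals without the 20 most abundant genes the difference was −0.02 (limma adjusted p = 0.847), which was −0.38 relative to the median of all genes in that scaling, and under quantile normalization it turned to 0.04 (limma adjusted p = 0.655). Smarcc1 was at 16.1, 17.0, 15.01 and 13.7 in WT-veh and 18.6, 17.4, 16.5 and 16.9 in WT-DES. These ranges overlapped and the difference did not pass (log2 difference 0.16, SE 0.08, limma adjusted p = 0.0934), though it passed as higher with median-ratio scaling (0.20, limma adjusted p = 0.0413) and under equal totals (0.57).

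A ratio between a pair of genes within a sample does not change when the whole sample is multiplied by a factor, and was read beside the differences as a description with no test. Quantile normalization is no such factor and does change it, with log2 differences of 0.185 for Smarcc1 and 0.04 for Smarcc2, closer together than in the values as deposited. The ratio of Smarcc1 to Smarcc2 was 0.210, 0.238, 0.225 and 0.217 in WT-veh and 0.376, 0.345, 0.321 and 0.329 in WT-DES. All 4 WT-DES values were above those of every other group, which reached 0.210 to 0.269 in aERKO-veh and 0.218 to 0.285 in aERKO-DES. On the log2 scale the mean ratio was −2.17 ± 0.08 (SD, n = 4) for WT-veh, against −1.55 ± 0.10 for WT-DES, and taking out each sample's trend on transcript length left it at −2.11 and −1.60.

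Smarcd1, Smarcd2 and Smarcd3 (BAF60a, b and c) are alternative subunits that link the complex to transcription factors, and Smarcd3 is best known from heart and muscle. Smarcd3 was at 33.9, 34.7, 35.2 and 40.7 FPKM in WT-veh and 27.2, 15.1, 18.8 and 18.4 in WT-DES. Every WT-DES sample was below every WT-veh sample, with sample 1 the highest of the 4. The WT-DES mean was 0.550 times that of WT-veh (log2 difference −0.86, SE 0.15, limma adjusted p = 0.000101), the largest change among the 10 genes, and it remained lower and passed under all 3 other scalings. Without WT-DES sample 1 the log2 difference was −1.01. Summed FPKM of 6 smooth muscle markers was 3099, 3517, 2845 and 2889.9 in WT-veh and 3316, 789.6, 1038 and 1227 in WT-DES. It was below every WT-veh sample in WT-DES samples 2 to 4 and within the WT-veh range in sample 1, the WT-DES sample with the most Smarcd3. The sum of 6 skeletal muscle markers was also highest in sample 1 among the WT-DES samples (341.6, 38.4, 73.3 and 96.6). All 4 were below every WT-veh sample (577 to 1766). The part of smooth or skeletal muscle content in the fall of Smarcd3 was not tested.

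Smarcd3 also shares exons with another gene. In GENCODE M21, 642 bases, 33% of the exon bases of its protein-coding transcripts, are also exon of Chpf2 on the opposite strand, a chondroitin polymerizing factor. Chpf2 was at 29.8, 29.5, 27.7 and 28.8 FPKM in WT-veh and 22.0, 18.6, 17.8 and 17.7 in WT-DES. It was thus lower in every WT-DES sample too, and since no strand setting is given in the sources used here, the fragments of the shared bases cannot be told apart. Smarcc1 shares 1.8% of such bases with Dhx30, and Smarcd1 8% with Gm17349, which is not in the table.

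Smarcd1 went the other way. It was at 12.5, 11.5, 10.8 and 11.5 FPKM in WT-veh and 12.3, 14.8, 15.1 and 13.9 in WT-DES. WT-DES sample 1 lay within the WT-veh range and the other 3 WT-DES samples above it. The mean was 1.21 times that of WT-veh (log2 difference 0.25, SE 0.08, limma adjusted p = 0.0119), and under quantile normalization the difference was 0.185 and did not pass (limma adjusted p = 0.0627). The ratio of Smarcd1 to Smarcd3 was 0.369, 0.332, 0.308 and 0.283 in WT-veh and 0.454, 0.980, 0.804 and 0.752 in WT-DES, above all samples of the other 3 groups (0.284 to 0.388 in aERKO-veh and 0.271 to 0.333 in aERKO-DES). Smarcd2, the third paralogue and the most abundant of them, fell as well, from 107, 98.9, 106 and 103 in WT-veh to 61.7, 62.9, 67.6 and 65.9 in WT-DES (log2 difference −0.68, SE 0.07, limma adjusted p = 3.43e-07), with no overlap.

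Because Smarcc2 and Smarcd3 were the members that fell most in WT-DES, the sequence before their start sites is shown (RefSeq, GRCm38.p6), with every CG in capitals. Smarcc2 covers chr10:128458986-128459235 on the plus strand, and Smarcd3 covers chr5:24602013-24602252 on the minus strand, inside the span GENCODE gives the gene and without the 10 bases that it counts as exon.
Smarcc2: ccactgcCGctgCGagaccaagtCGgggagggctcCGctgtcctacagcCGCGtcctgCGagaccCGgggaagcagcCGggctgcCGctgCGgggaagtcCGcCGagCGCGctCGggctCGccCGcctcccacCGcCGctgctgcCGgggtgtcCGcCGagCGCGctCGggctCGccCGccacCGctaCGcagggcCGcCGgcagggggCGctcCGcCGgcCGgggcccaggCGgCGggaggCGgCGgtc
Smarcd3: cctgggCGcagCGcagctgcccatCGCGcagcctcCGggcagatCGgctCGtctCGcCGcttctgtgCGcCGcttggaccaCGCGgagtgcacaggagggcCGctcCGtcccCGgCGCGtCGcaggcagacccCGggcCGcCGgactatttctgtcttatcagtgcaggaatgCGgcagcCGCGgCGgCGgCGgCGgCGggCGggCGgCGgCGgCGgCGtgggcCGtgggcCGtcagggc
The windows hold 40 and 38 CG pairs, against a median of 6 in the 250 bases before the start over 32851 promoters. Windows were found for 9 of the 10 genes, 2 of them for Arid1a, and held 18 to 40 CG pairs, all above the upper quartile of 16, so a CG-rich start is shared by members that rose and members that fell. The consensus oestrogen response element, GGTCA and TGACC with any 3 bases between, was in 0 of these 10 windows and in 0.0639% of all promoters. Its half-site (GGTCA on either strand) was in 1 window, 143 bases before the RefSeq start of Smarcd1, and in 35.2% of all promoters. GENCODE starts Smarcd1 further upstream, so this match lies in bases that it counts as exon, and 6 of the 10 windows hold between 3 and 158 such bases.

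In the ATPase genes WT-DES sample 1 lay on the other side of WT-veh from the rest of its group. Smarca2 was at 54.9, 55.7, 53.3 and 52.5 FPKM in WT-veh and 44.1, 69.3, 75.8 and 66.1 in WT-DES. WT-DES sample 1 was below all WT-veh samples and the other 3 were above them. The difference did not pass with all samples (log2 difference 0.21, SE 0.13, limma adjusted p = 0.153) and passed without WT-DES sample 1 (log2 difference 0.37, limma adjusted p = 0.000532). With all samples it also passed as higher under quantile normalization (0.69), equal totals without the 20 most abundant genes (0.635) and sample weights (0.36). Correction for transcript length turned it the other way, to −0.11 with the protein-coding length and −0.09 with the longest transcript, and it did not pass in either. Smarca4 showed the reverse, at 26.6, 25.4, 23.5 and 24.8 in WT-veh and 35.8, 22.2, 20.97 and 21.5 in WT-DES, where sample 1 was above and the other 3 below every WT-veh sample. The difference did not pass (log2 difference −0.03, SE 0.15, limma adjusted p = 0.861), nor did it without WT-DES sample 1 (log2 difference −0.21, limma adjusted p = 0.0961), and it turned to 0.39 and passed under equal totals without the 20 most abundant genes. The ratio of Smarca2 to Smarca4 was accordingly 2.07 to 2.27 in WT-veh and 1.23, 3.11, 3.62 and 3.08 in WT-DES, so the BRM to BRG1 balance of sample 1 was on the other side of WT-veh from that of its group.

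Smarcb1 (SNF5) and Smarce1 (BAF57) are core subunits without a paralogue. Smarcb1 was at 42.8, 45.8, 44.3 and 55.6 FPKM in WT-veh and 37.6, 42.2, 37.8 and 39.6 in WT-DES, just without overlap (log2 difference −0.25, SE 0.10, limma adjusted p = 0.0365). This call did not pass when either of WT-veh samples 2 and 4 or any of WT-DES samples 1, 3 and 4 was left out (limma adjusted p 0.0512 to 0.133), it did not pass with median-ratio scaling (limma adjusted p = 0.0745), and quantile normalization and rescaling without the 20 most abundant genes turned its direction (0.123 and 0.175). Smarce1 was at 11.4, 11.2, 12.7 and 12.8 in WT-veh and at 11.2, 12.4, 13.0 and 11.98 in WT-DES, and did not pass (log2 difference 0.01, SE 0.08, limma adjusted p = 0.875). Under equal totals without the 20 most abundant genes Smarce1 passed as higher (0.42, limma adjusted p = 0.000159), which was 0.05 relative to the median of all genes in that scaling.

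Arid1a and Arid1b encode the mutually exclusive large subunits that define the canonical BAF complex and bind DNA, and Arid1a is the subunit gene most often mutated in cancer. Arid1b was at 9.04, 8.83, 7.40 and 7.41 FPKM in WT-veh and 10.5, 11.99, 11.7 and 10.2 in WT-DES, without overlap (log2 difference 0.40, SE 0.11, limma adjusted p = 0.00371), and under quantile normalization the difference was 0.23 and did not pass (limma adjusted p = 0.0573). Arid1a was at 19.9, 22.8, 17.5 and 17.7 in WT-veh and at 24.3, 24.5, 24.9 and 21.2 in WT-DES, where WT-veh sample 2 overlapped the lowest WT-DES sample (log2 difference 0.28, SE 0.11, limma adjusted p = 0.0324). The Arid1a call was lost without any 1 of WT-veh samples 3 and 4 or of the WT-DES samples 1 to 3 (limma adjusted p 0.0585 to 0.095). The ratio of Arid1b to Arid1a ranged from 0.387 to 0.455 among WT-veh samples and from 0.432 to 0.489 among WT-DES samples, which overlapped. Both genes are long, and the direction of both turned once transcript length was corrected for, to −0.15 for Arid1b and −0.17 for Arid1a.

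These genes differ widely in transcript length, and in both comparisons with WT-veh the log2 difference tended to be higher in the longer ones. The longest protein-coding transcript in GENCODE M21 was 1660 nt for Smarcb1 (chr10:75896769-75921617, minus strand of GRCm38), 1735 nt for Smarcd3 (chr5:24590818-24624411, minus strand), 2919 nt for Smarce1 (chr11:99209047-99231017, minus strand) and 3307 nt for Smarcd1 (chr15:99702129-99713991, plus strand). It was 4562 nt for Smarcc2 (chr10:128459248-128490482, plus strand), 5773 nt for Smarcc1 (chr9:110117708-110240178, plus strand), 5921 nt for Smarca2 (chr19:26605050-26778322, plus strand) and 6376 nt for Smarca4 (chr9:21616169-21704230, plus strand). The longest were Arid1a at 8187 nt (chr4:133679008-133756769, minus strand) and Arid1b at 11325 nt (chr17:4994332-5347656, plus strand). Across the 10 genes, Spearman's rho of the log2 difference with this length was 0.70 in WT-DES vs WT-veh and 0.95 in aERKO-veh vs WT-veh. Genes are not independent replicates, and all genes followed length too, with rho of 0.28 and 0.58 over 15048 tested genes with a length. For genes without a protein-coding transcript, the longest transcript of any kind stood in, here and in the correction below. The protein-coding length was taken up after the data were seen, because the longest annotated transcripts of Smarcb1, Smarcd3 and Smarce1 are not protein-coding, and with the longest transcript of any kind, as planned, rho over the 10 genes was lower, at 0.42 and 0.61. With the protein-coding length, in aERKO-DES vs aERKO-veh rho was −0.87 over the 10 genes and −0.34 over all, and in aERKO-DES vs WT-DES −0.18 and −0.15. With the longest transcript these were −0.455 and −0.32 in aERKO-DES vs aERKO-veh, and 0.15 and −0.14 in aERKO-DES vs WT-DES, where the sign over the 10 genes thus depended on which length was used. In WT-DES vs WT-veh, 63.8% of the 754 genes with a transcript of 8000 nt or more were higher and 12.7% lower, against 25.2% and 51.9% of the 3113 genes between 1000 and 2000 nt. Arid1a and Arid1b belong to the first class, where the median log2 difference was 0.52, and Smarcb1 and Smarcd3 to the second, with a median of −0.33.

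**Figure D2:**
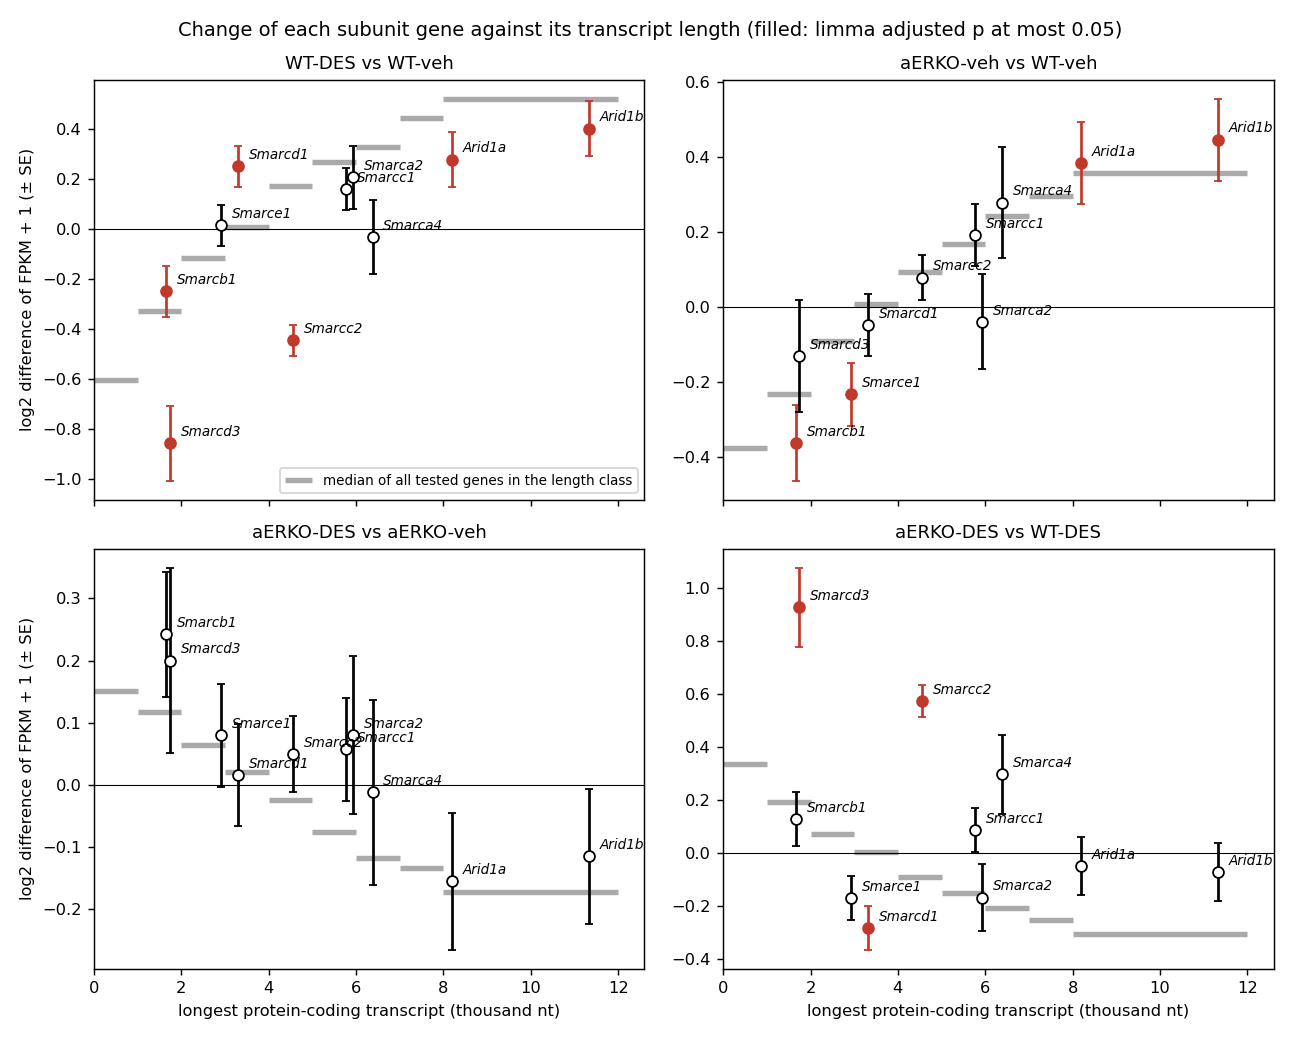
Log2 difference (± SE) of each subunit gene against the length of its longest protein-coding transcript, in 4 comparisons; filled points passed and grey bars are the median of all tested genes in each length class. In WT-DES vs WT-veh Smarcc2 (−0.45) and Smarcd3 (−0.86) lie below the median of their length class (0.17 and −0.33).

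Each sample was then corrected for its own trend on this length, a correction chosen after the data were seen, and the same test run again. In WT-DES vs WT-veh, 1 member was higher and 5 lower, against 35% and 37.9% of the 15048 genes. Smarcd1 stayed higher (log2 difference 0.22, SE 0.08, limma adjusted p = 0.0204). Smarcc2 (log2 difference −0.64, SE 0.06, limma adjusted p = 9.89e-08) and Smarcd3 (log2 difference −0.62, SE 0.13, limma adjusted p = 0.000499) stayed lower. Arid1b turned from 0.40 to −0.15 and no longer passed (limma adjusted p = 0.0529), Smarcb1 went to 0.01 and did not pass, while with the planned correction on its longest transcript it was at −0.65 and passed, and Arid1a turned from 0.28 to −0.17 and passed as lower (limma adjusted p = 0.04). Smarca4 and Smarcc1, which had not passed, were lower at −0.38 and −0.14. Smarca2 turned from 0.21 to −0.11 without passing. The planned correction gave 1 higher and 4 lower, against 35.2% and 37.8% of all genes, and under it Arid1a (−0.15) and Smarcc1 (−0.12) did not pass. Smarcd1, Smarcc2 and Smarcd3 therefore kept their direction and their call with either correction and without one. The origin of the length trend was not tested.

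**Figure D3:**
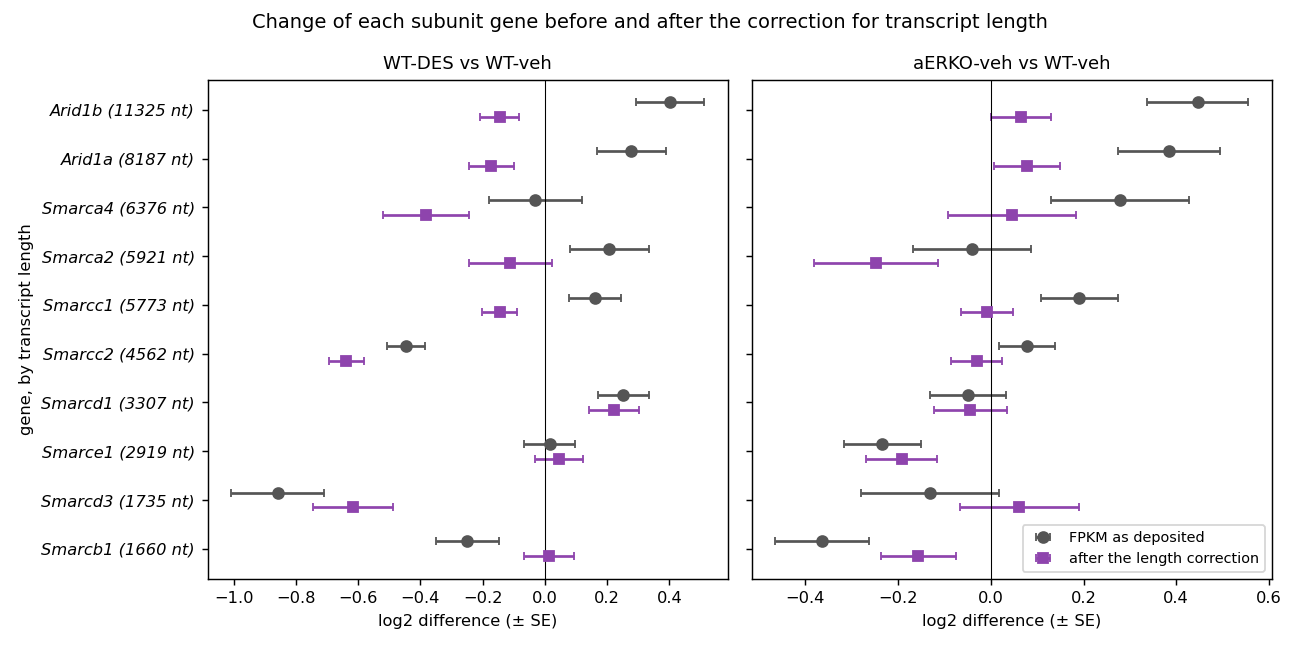
Log2 difference (± SE) of each subunit gene, ordered by transcript length, in the FPKM as deposited (circles) and after the length correction (squares). In aERKO-veh vs WT-veh the values of Arid1a and Arid1b moved from 0.38 and 0.45 to 0.08 and 0.07, and in WT-DES vs WT-veh Smarcc2 and Smarcd3 were below 0 both before and after.

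Loss of oestrogen receptor α without DES (aERKO-veh vs WT-veh) changed 4 of the 10 genes. Arid1a and Arid1b were higher and Smarcb1 and Smarce1 lower, against 10.8% higher and 15.2% lower over all genes. Arid1b was at 9.30, 13.4, 12.1 and 11.4 FPKM in aERKO-veh, above all WT-veh samples (log2 difference 0.45, SE 0.11, limma adjusted p = 0.0121). Arid1a was at 20.3, 28.6, 27.7 and 26.5, with sample 1 inside the WT-veh range (log2 difference 0.38, SE 0.11, limma adjusted p = 0.0216). The same sample was the lowest of its group for Arid1b, and it was also the 1 aERKO-veh sample in which long transcripts were relatively low (rho −0.10 of its deviation with length over all genes, against 0.11 to 0.47 in the other 3). The deviation is from the mean of all 16 samples, and the 4 WT-veh samples were lower still, at −0.54 to −0.23. Of all 16 samples, WT-veh sample 4 was the lowest in this rho and aERKO-veh sample 2 the highest. Smarcb1 was at 35.5, 32.9, 42.2 and 34.9 and every value was below WT-veh (log2 difference −0.36, SE 0.10, limma adjusted p = 0.0197). Smarce1 was at 10.49, 9.20, 11.1 and 9.47, also below all WT-veh samples (log2 difference −0.23, SE 0.08, limma adjusted p = 0.0492). After the length correction 0 of the 10 genes passed in limma, against 4.1% higher and 5.5% lower of all genes, and 1, Smarce1, had an unadjusted p under 0.05, against 27% of all genes. Under the planned correction on the longest transcript 1 passed, Smarcb1, which was lower (−0.63, limma adjusted p = 0.0189), against 4.8% higher and 6.69% lower, so the choice of length decided its call. Smarcb1 did not pass under quantile normalization (limma adjusted p = 0.079) or equal totals without the 20 most abundant genes (limma adjusted p = 0.128). Smarce1, close to the threshold, did not pass with median-ratio scaling, quantile normalization, no variance trend or no FPKM minimum either (limma adjusted p 0.0531 to 0.0646), nor under equal totals (limma adjusted p = 0.553). With only the WT-veh and aERKO-veh samples fitted, Smarce1 (limma adjusted p = 0.0618) and Arid1a (limma adjusted p = 0.0521) did not pass. The 4 calls also depended on single samples, since leaving out 1 sample left between 1 and 5 of the 10 genes changed, and 1 when WT-veh sample 4, aERKO-veh sample 2 or aERKO-veh sample 4 was the one left out and 2 without WT-veh sample 3. The share of all genes called fell as well, from 26.1% to 14%, 9.69% and 17% without those 3 samples and to 13.8% without WT-veh sample 3, and it was 32.1% without WT-DES sample 1, where 5 members passed. Rescaling without the 20 most abundant genes gave 5 higher and 0 lower, against 20.4% and 5.74% of all genes. The epithelial marker sum was 1459 to 1609.7 FPKM among WT-veh and 1123 to 1425 among aERKO-veh samples, with 2 of 6 markers lower and 1 higher, and the sum of the SV secretory genes was 52826 to 61056 and 31642 to 49834, neither with overlap. The skeletal muscle sum overlapped, at 577 to 1766 and 592 to 2052, with 1 of 6 markers higher, as was 1 of 6 of dividing cells. Of 9 leukocyte markers 1 was lower, and their sum was 252.1 to 410.4 among WT-veh and 169.4 to 249 among aERKO-veh samples, without overlap. The part of these markers in the differences was not tested.

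Smarcc2, which fell with DES in WT, did not pass in aERKO-veh, at 72.7, 76.4, 72.7 and 71.4 FPKM (log2 difference 0.08, SE 0.06, limma adjusted p = 0.371), but passed as higher under equal totals without the 20 most abundant genes (0.26, limma adjusted p = 0.0308) and under quantile normalization (0.24, limma adjusted p = 0.0481). Smarcd3 was at 36.3, 31.5, 31.6 and 32.1 and did not pass either (log2 difference −0.13, SE 0.15, limma adjusted p = 0.556).

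DES in aERKO glands (aERKO-DES vs aERKO-veh) changed 0 of the 10 genes in limma at an adjusted p of at most 0.05, against 1.33% higher and 1.52% lower of all genes. At an unadjusted p under 0.05 there was 1, against 25.3% of all genes. The gene with the low unadjusted p was Smarcb1, at 35.5, 32.9, 42.2 and 34.9 FPKM in aERKO-veh and 49.8, 41.8, 44.8 and 36.8 in aERKO-DES (log2 difference 0.24, limma adjusted p = 0.158). With sample weights, 2 members passed as higher, Smarcb1 and Smarcd3, in a fit that called 23% of all genes higher and 18.8% lower. Smarcc2 was at 77.1, 79.1, 77.2 and 70.5 and Smarcd3 at 47.6, 40.4, 32.8 and 32.5 in aERKO-DES, where both overlapped the vehicle group. After the length correction 0 members passed in limma, against 2.03% higher and 2.17% lower of all genes, and 1, Smarcc1, had an unadjusted p under 0.05, against 24.4% of all genes. Of the markers, 4 of 6 skeletal muscle, 3 of 4 adipose and 1 of 6 fibroblast genes were lower in aERKO-DES than in aERKO-veh. The fibroblast sum was 599 to 980 FPKM in aERKO-veh and 496 to 594 in aERKO-DES, without overlap, and the part of these markers in the members' values was not tested.

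The difference between the DES effects in WT and aERKO was tested directly as an interaction. Of the 10 genes 5 passed, with 35.3% of all genes higher and 36.2% lower. Smarcd3, which was lower with DES in WT and did not pass with DES in aERKO, had the largest value (log2 difference of the effects −1.06, SE 0.21, limma adjusted p = 0.000394). Smarcc2 was also lower (log2 difference −0.50, SE 0.09, limma adjusted p = 0.000128), as was Smarcb1 (log2 difference −0.49, SE 0.14, limma adjusted p = 0.00659). Arid1b (log2 difference 0.52, SE 0.15, limma adjusted p = 0.00743) and Arid1a (log2 difference 0.43, SE 0.15, limma adjusted p = 0.0213) were higher. Without WT-DES sample 1, Smarca2 (0.29) and Smarcd1 (0.29) passed as well, against 36.8% higher and 37.6% lower of all genes. With all samples Smarca2 also passed as higher under quantile normalization (0.735), equal totals (0.68) and sample weights (0.30). Smarcd1 did so under median-ratio scaling (0.29), GC correction (0.365), equal totals (0.76) and sample weights (0.35). These fits called 64.1% to 80% of all genes in either direction. After the length correction 0 members were higher and 5 lower, against 33.8% and 36.5% of all genes, and 0 were higher at an unadjusted p under 0.05, against 35.2%. Smarcc2 (−0.74) and Smarcd3 (−0.74) were among the 5, together with Smarca4 (−0.48), Smarcc1 (−0.30) and Arid1b, whose direction turned to −0.22. Smarca2 turned from 0.13 to −0.29 without passing. The choice of length decided the calls of Smarcb1 and Arid1b, since under the planned correction on the longest transcript Smarcb1 passed as lower (−1.02, limma adjusted p = 0.000402) and Arid1b did not pass (−0.20, limma adjusted p = 0.0645). Under quantile normalization Smarcb1 was at −0.005 (limma adjusted p = 0.971) and Arid1b at 0.32 (limma adjusted p = 0.0686), and neither passed. Rescaling without the 20 most abundant genes gave 7 higher and 1 lower, against 53.5% and 19% of all genes, and it turned the signs of Smarcc2 (0.06) and Smarcb1 (0.06), as quantile normalization did that of Smarcc2 (0.14), while Smarcd3 stayed lower in both.

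Between the DES-treated groups (aERKO-DES vs WT-DES) 3 of the 10 genes differed, against 37.8% higher and 36.2% lower over all genes. This comparison shares the WT-DES samples with the first, so its values are given beside and not as support. Smarcc2 had a mean of 76.0 ± 3.76 FPKM in aERKO-DES against 50.7 ± 0.978 in WT-DES (SD, n = 4; log2 difference 0.57, SE 0.06, limma adjusted p = 6.81e-07), and Smarcd3 was 1.93 times as high (log2 difference 0.93, SE 0.15, limma adjusted p = 4.55e-05), both without overlap. Smarcd1 was lower (log2 difference −0.28, SE 0.08, limma adjusted p = 0.00557), with overlapping values of 12.9, 11.2, 10.4 and 10.8 in aERKO-DES. Under quantile normalization the Smarcc2 difference was 0.10 and did not pass (limma adjusted p = 0.278). Without WT-DES sample 1, 6 members passed, Smarca2 (−0.33), Smarca4 (0.47) and Smarce1 (−0.205) in addition, against 38.6% higher and 36.8% lower of all genes. After the length correction 6 were higher and 2 lower, against 39.8% and 36% of all genes, and Smarca4 (0.53), Smarcc1 (0.29), Arid1a (0.24) and Arid1b (0.28) were the added rises. Smarca2 turned from −0.17 to 0.04 and Smarcb1 from 0.13 to −0.01, and neither passed. The planned correction gave 7 higher, with Smarcb1 (0.39) among them, and 1 lower, against 40% and 36% of all genes. Rescaling without the 20 most abundant genes gave 2 higher and 7 lower, against 22.4% and 52.1% of all genes. Marker lists moved with this comparison too, as 9 of 9 leukocyte, 6 of 6 fibroblast, 4 of 4 adipose and 3 of 3 neuronal markers were lower in aERKO-DES. Higher there were 4 of 6 smooth muscle, 5 of 6 epithelial, 9 of 9 secretory and 1 of 6 skeletal muscle genes. The part of these markers in the differences was not tested.

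**Figure D4:**
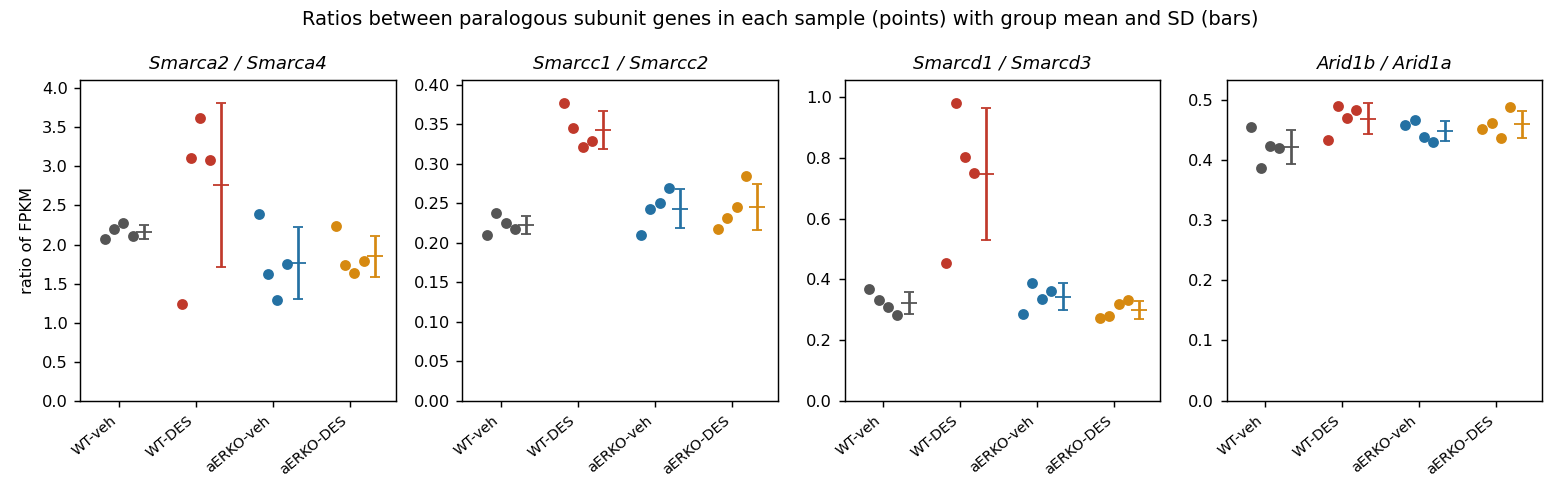
Ratios of FPKM between paralogous subunit genes in each of the 16 samples, by group, with the group mean and SD. The ratio of Smarcc1 to Smarcc2 was 0.222 ± 0.0120 in WT-veh and 0.343 ± 0.0245 in WT-DES, and that of Smarcd1 to Smarcd3 0.323 ± 0.0364 and 0.748 ± 0.219 in the same groups.

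The paralogue ratios in aERKO glands overlapped those of WT-veh for the scaffold and D subunits. The Smarcd1 to Smarcd3 ratio was 0.284, 0.388, 0.337 and 0.362 in aERKO-veh and 0.271, 0.278, 0.318 and 0.333 in aERKO-DES. On the log2 scale its mean was −1.64 ± 0.16 (SD, n = 4) for WT-veh, against −0.47 ± 0.47 for WT-DES, and −1.497 and −0.603 with each sample's length trend taken out. The Smarca2 to Smarca4 ratio was 2.40, 1.62, 1.29 and 1.75 in aERKO-veh and 2.24, 1.73, 1.64 and 1.79 in aERKO-DES. In each of these groups sample 1 had the highest value and the other 3 were below all WT-veh samples.

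Of 21 further SWI/SNF subunit genes, 20 were tested. Actl6b, a neuronal actin-like subunit, stayed below the minimum, at 0.0600 to 0.770 FPKM in WT-DES. In WT-DES vs WT-veh 7 were higher, 7 lower and 6 did not pass, with a median log2 difference of 0.14, so that both shares were near those of all genes (36.4% and 37.3%). The largest rises were those of Bcl11b (0.74), a zinc-finger subunit also known from T cells and at 0.790 to 2.06 FPKM only, the PBAF subunit Arid2 (0.50) and Gltscr1l (0.43), a non-canonical BAF subunit also called Bicral. The largest falls were those of Smarcd2 (−0.68), Phf10 (−0.56), another PBAF subunit, and Bcl7b (−0.55). After the length correction 4 were higher and 7 lower, against 35% and 37.9% of all genes, and 1 and 6 under the planned correction, against 35.2% and 37.8%. Bcl11b went to 0.29, Arid2 to 0.04 and Gltscr1l to 0.06, and none of the 3 passed, while Smarcd2 (−0.63), Phf10 (−0.30) and Bcl7b (−0.31) stayed lower. Of the 4 that were higher, Bcl7a (0.41 before and 0.20 after), singled out after its values were seen, also passed under the planned correction (0.24).

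In aERKO-veh vs WT-veh, 3 of these 20 were higher and 5 lower. The rises were Arid2 (0.58), the bromodomain protein Pbrm1 of PBAF (0.52) and Gltscr1l (0.38), and the largest falls were Phf10 (−0.40), Bcl7c (−0.38) and Smarcd2 (−0.26), against 10.8% and 15.2% of all genes. With length corrected for, 1 was higher, Arid2 (0.27), and 4 lower, against 4.1% and 5.5% of all genes, and Pbrm1 (0.22), Gltscr1l (0.14) and Bcl7c (−0.08) did not pass. Under the planned correction Bcl7c passed as lower (−0.59) and Smarcd2 did not (−0.17). In aERKO-DES vs aERKO-veh 0 passed in limma, against 1.33% higher and 1.52% lower of all genes, and 4 had an unadjusted p under 0.05, which is near the 25.3% of all genes, while after either length correction 1 passed, Brd7 (0.20 with the protein-coding length, limma adjusted p = 0.0446), against 2.03% and 2.17%. In aERKO-DES vs WT-DES 6 were higher and 5 lower, against 37.8% and 36.2% of all genes. The rises were led by Smarcd2 (0.60), Bcl7b (0.53) and Brd7 (0.435), and the falls by Bcl11b (−0.69), Bcl7a (−0.55) and Dpf3 (−0.55), which was at 0.240 to 0.410 FPKM in aERKO-DES and at 2.43, 0.530, 0.580 and 0.750 in WT-DES, where sample 1 was apart. The interaction passed for 7 higher, led by Dpf3 (0.77), Arid2 (0.73) and Bcl7a (0.64), and 8 lower, led by Smarcd2 (−0.85), Bcl7b (−0.74) and Phf10 (−0.71), against 35.3% and 36.2% of all genes. With the protein-coding length corrected for, the interaction passed for 4 higher and 8 lower, against 33.8% and 36.5% of all genes, and Arid2 went to 0.12 and did not pass. In aERKO-DES vs WT-DES 7 were then higher and 6 lower, against 39.8% and 36%. Over all 30 tested subunit genes, rho of the log2 difference with transcript length was 0.71 in WT-DES vs WT-veh and 0.80 in aERKO-veh vs WT-veh with the protein-coding length, and 0.60 and 0.56 with the longest transcript.

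Among 16 catalytic genes of the ISWI, CHD, INO80 and related remodelling families, 11 were higher and 2 lower in WT-DES vs WT-veh (median log2 difference 0.29), against 36.4% and 37.3% of all genes, and 4 were higher and 7 lower after the length correction (median −0.09), against 35% and 37.9%. In aERKO-veh vs WT-veh 8 were higher and 0 lower, against 10.8% and 15.2% of all genes, and 0 were lower at an unadjusted p under 0.05, against 22.2%. After the correction 2 were higher and 0 lower, against 4.1% and 5.5% of all genes, and 3 were lower at an unadjusted p under 0.05, against 14.1%. In aERKO-DES vs aERKO-veh 0 of 16 passed in limma, against 1.33% higher and 1.52% lower of all genes, and 3 had an unadjusted p under 0.05, against 25.3%. In aERKO-DES vs WT-DES 2 were higher and 7 lower, against 37.8% and 36.2% of all genes, and 8 and 1 after the length correction, against 39.8% and 36%. The interaction passed for 10 higher and 2 lower, against 35.3% and 36.2%, and for 4 and 7 after the length correction, against 33.8% and 36.5%, so the correction turned both balances.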

How the data were processed

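RNA-seq was done on 16 seminal vesicle samples, 4 in each of 4 groups, grouped by the labels. The authors aligned paired-end reads to mm10 with TopHat2 2.0.4 and deposited FPKM made with Cufflinks 2.0.2, versions as in the submitters' processing notes. No read counts, strand setting or depth are given in the sources used here, and FPKM keeps no depth, so the precision rests on the spread of 4 samples. Where samples were not separate animals, p-values measure only the spread between samples.

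From the deposited FPKM, log2(FPKM + 1) was fitted with limma 3.58.1 (R 4.3.3) as 1 model of 16 samples with a variance trend, over 15988 genes with a mean above 1 FPKM in at least 1 group. Adjusted p was Benjamini-Hochberg over all genes tested, with a threshold of 0.05. The 4 pairwise comparisons and the interaction were contrasts of this model. The length correction took a lowess trend (span 0.3) on log transcript length from each sample, for the 94.1% of tested genes with a GENCODE M21 length. The code was tested on simulated data. Plots were drawn with matplotlib 3.10.9 and tables handled with numpy 2.4.6 and pandas 2.3.3 under Python 3.11.15. The text names all 10 members and, of 21 other subunits, those below the minimum and in each comparison the 3 largest rises and falls that passed; other families are given as counts. The members and gene lists were chosen with earlier results of these data known. Alternatives were pseudocount, filter, threshold, scaling, GC and length corrections, weights, a replicate block and leaving out each sample.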

Additional observations from a re-analysis of the deposited data

Results flagged for a closer look

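In 3 of 40 combinations of gene and group, 1 sample lay far from the other 3, by its gap to the nearest value divided by the range of the group; chance flags about 1 in 20 groups. Smarca4 in WT-DES sample 1 was at 35.8 FPKM (ratio 0.914), Smarcd3 in aERKO-veh sample 1 at 36.3 FPKM (ratio 0.87) and Arid1a in WT-DES sample 4 at 21.2 FPKM (ratio 0.83).

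The DES effect differed between WT and aERKO for 5 of the 10 genes in the limma interaction test, where 35.3% of all genes were higher and 36.2% lower. The log2 values were −1.059 for Smarcd3, −0.496 for Smarcc2, −0.492 for Smarcb1, 0.518 for Arid1b and 0.433 for Arid1a.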

How the results depend on the processing

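Of 840 member values under other settings, 57 lost and 50 gained a call and 43 turned direction with 1 fit or both passing, while of the other 690, 61 changed sign with neither fit passing. Of 800 with 1 sample left out, 29 lost and 11 gained a call, and of the other 760, 21 changed sign with neither fit passing. The cause of these shifts was not tested. Depth is unknown, which limits low genes most.

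In the order WT-DES vs WT-veh, aERKO-veh vs WT-veh, aERKO-DES vs aERKO-veh, aERKO-DES vs WT-DES and interaction, the members changed were 6, 4, 0, 3 and 5, against 73.8%, 26.1%, 2.85%, 74% and 71.5% of all genes called in either direction. Leaving out 1 sample gave 4 to 6, 1 to 5, 0 to 0, 3 to 6 and 5 to 7 members, against 70.1% to 75.5%, 9.69% to 32.1%, 0.00625% to 8.93%, 71% to 75.4% and 68.2% to 74.4%. The shares of all genes called stand after the counts below. At an adjusted p of at most 0.01 WT-DES vs WT-veh gave 3 (64.5%) and aERKO-veh vs WT-veh 0 (5.78%). With at least 1.5-fold as well, WT-DES vs WT-veh, aERKO-veh vs WT-veh, aERKO-DES vs WT-DES and the interaction gave 1, 0, 1 and 1 (52.9%, 7.24%, 53.5% and 56.4%). For aERKO-veh vs WT-veh there were 2 (27.1%) with only the groups compared, a fit in which the interaction was not run. Sample weights gave 2 in aERKO-DES vs aERKO-veh (41.8%) and 6 in aERKO-DES vs WT-DES (77.4%), and quantile normalization 3 in WT-DES vs WT-veh (70.5%) and 3 in the interaction (64.1%). In aERKO-veh vs WT-veh sample weights added Smarca4 (0.249) and Smarcc1 (0.266), both higher, in a fit that called 55.5% of all genes. Equal totals without the 20 most abundant genes gave 9 in aERKO-DES vs WT-DES (74.4%) and 8 in the interaction (72.5%).

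Under quantile normalization Smarcb1 turned to 0.123 and Smarcc2 to 0.041 in WT-DES vs WT-veh, Smarcb1 to −0.226 in aERKO-DES vs WT-DES and Smarcc2 to 0.142 in the interaction. Under equal totals Smarca4 turned to 0.387 and Smarcb1 to 0.175 in WT-DES vs WT-veh, Smarcb1 to −0.247 and Smarcc1 to −0.276 in aERKO-DES vs WT-DES, and in the interaction Smarca4 to 0.526, Smarcb1 to 0.061, Smarcc2 to 0.061 and Smarce1 to 0.458. That scaling moved the calls over all genes from 5821 higher of 11792 to 8686 of 12000 in WT-DES vs WT-veh.

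Correction on the longest transcript gave 1 in aERKO-veh vs WT-veh (11.5%) and 8 in aERKO-DES vs WT-DES (75.9%), and 1 (11.3%) and 9 (75.3%) with the replicate block. With or without the block, Arid1a and Arid1b turned to −0.154 and −0.128 in WT-DES vs WT-veh and to 0.231 and 0.27 in aERKO-DES vs WT-DES, and Smarcc1, Arid1a and Arid1b to −0.264, −0.142 and −0.197 in the interaction. Correction on the protein-coding transcript, chosen after seeing the data, gave 0 (9.6%) and 8 (75.8%), and with the replicate block 0 (9.3%), 8 (75.5%) and, in the interaction, 3 (69.7%). It turned Smarcb1, Smarcc1, Arid1a and Arid1b to 0.013, −0.145, −0.172 and −0.146 in WT-DES vs WT-veh, Arid1a and Arid1b to 0.244 and 0.284 in aERKO-DES vs WT-DES, and Smarcc1, Arid1a and Arid1b to −0.298, −0.165 and −0.219 in the interaction. Smarca2 turned without passing, to −0.111, 0.044 and −0.291 in the same comparisons, and Smarcb1 to −0.012 in aERKO-DES vs WT-DES.

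The replicate block alone gave 5, 3, 0, 3 and 5 members changed, against 73.2%, 25.9%, 3.44%, 73.4% and 70.7% of all genes, with Smarcb1 in WT-DES vs WT-veh (limma adjusted p = 0.061) and Smarce1 in aERKO-veh vs WT-veh (limma adjusted p = 0.0507) not passing. Same-numbered samples correlated at −0.106 to 0.277 over the pairwise comparisons. In aERKO-DES vs aERKO-veh these values were −0.022 to 0.277, against a mean of −0.04 for other numbers. There 2 samples correlated best with their own number, against 0 in each other comparison. With 4 samples in each group this can neither show nor exclude a pairing by number.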
